A study of Mus musculus with 2 samples.

Results

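Tight runs of Tdg peaks were described here, that is, places on mouse chromosomes 1 to 19 where at least 4 called peaks followed each other with less than 1 kb between the edges of neighbours. Joining the deposited peaks by this rule gave 699 runs that held 3145 peaks, out of 72227 on chromosomes 1 to 19 and 72970 in the whole list. The remaining autosomal peaks were 48399 single peaks, which had no neighbour less than 1 kb away, and 20683 peaks in runs of 2 or 3. Positions and scores of the peaks come from the list from which the runs were chosen, so all values below are descriptions and no difference between runs and other peaks was tested.

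The peaks came from Biotag ChIP-seq of E14, an established embryonic stem cell line of the mouse. The library analysed (n = 1) is labelled Bio-Tdg. A second library (n = 1), labelled as a mock from BirA cells, had no file analysed here, so no background can be set beside any run and no value has a replicate error. How the tagged protein was expressed, and whether the cells were 1 clone, is not given in the sources used here. Intervals cover counting error only.

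Tdg is a DNA repair glycosylase. It removes the formyl and carboxyl derivatives of cytosine that the Tet dioxygenases make from methylcytosine, and base excision repair then fills the gap with an unmodified cytosine. It also removes thymine mispaired with guanine. Biotag ChIP pulls down a tagged protein with its DNA on streptavidin, after the bacterial ligase BirA has placed biotin on the tag. A called peak is a stretch with more reads than the caller's background, and 2 peaks that nearly touch can be neighbouring places of binding or parts of a wider region that the caller split. The peak list does not tell these apart. No sequence or gene annotation of the build mm9 was used here, so runs are named by their position in that build.

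The run with the most peaks lay on chromosome 4 at 106526030 to 106543945 and held 11 peaks over 17.9 kb. Its first peak was the widest, at 3250 bp, and had the score 3100. The score is the authors' own value per peak, and in the output of the caller it is minus 10 times the log10 of the p-value. From 3100 upwards, the commonest value at its upper end, the p-value lies at the limit of the computer's numbers and the score no longer ranks peaks, so scores of 3100 or more are called ceiling scores below. The other 10 peaks of this run scored between 275 and 1468, and their numbers of reads, which can be read back from score and width below the ceiling, lay between 22 and 110. One strong peak at the low-coordinate edge was thus followed by a chain of weaker ones that filled 78.7% of the run together with it.

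The run of 10 peaks on chromosome 11, 97517325 to 97536611, was shaped differently. Its scores were 510, 1078, 2741 and 3100 in the first 4 places and 1617, 1523, 511, 655, 404 and 279 in the others. The ceiling peak in place 4 was 6353 bp wide, and scores were lower towards both edges. Peaks covered 90.7% of its 19.3 kb, and no gap was longer than 329 bp. Another long run, 97658102 to 97675186 on the same chromosome, had 7 peaks over 17.1 kb with its ceiling peak at the first place.

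The only run of 9 peaks, chromosome 7 at 119828161 to 119844256, was looser. Peaks covered 69.6% of its 16.1 kb and its gaps ran from 318 to 906 bp. The peak in place 4 was at the ceiling, with 3230, while that in place 2 had 258, the lowest score in the whole list.

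**Figure D1:**
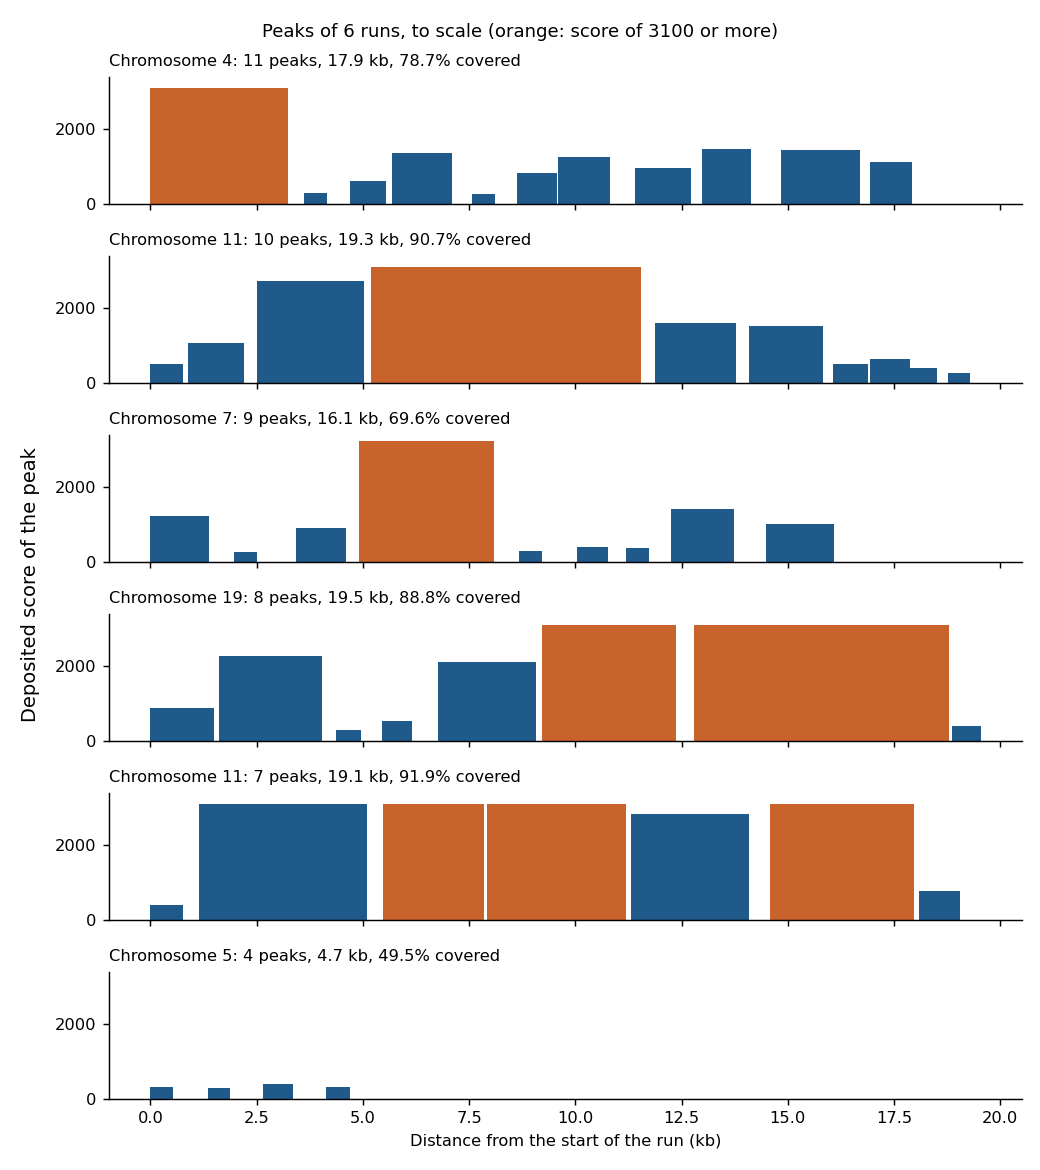
Peaks of 6 runs drawn to scale: the horizontal axis is distance from the start of the run in kb, each block is 1 peak, its height is the deposited score, and orange marks scores of 3100 or more. The chromosome 4 run has 1 orange block and 10 lower ones, the dense chromosome 11 run in the fifth panel has 3 orange blocks, and the chromosome 5 run holds 4 narrow blocks that cover 49.5% of it.

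Of the 13 runs of 8 peaks, the longest was chromosome 19, 5792956 to 5812499, with 19.5 kb and 88.8% covered. It held 2 ceiling peaks side by side, 3143 and 6005 bp wide, near its high-coordinate end, and 6 others with 24 to 165 reads. The run on chromosome 9, 62983376 to 62999753, had 1 peak of 6130 bp that made up 46.5% of its peak bases, and 7 others with 23 to 88 reads. A run of 8 peaks on chromosome 18 began with its ceiling peak of 5064 bp. At chromosome 15, 75710908 to 75725459, no peak reached the ceiling. Its 8 peaks held 714 reads together, with 3 strong ones of 171, 137 and 155 reads in places 5, 6 and 8. The runs at chromosome 10, 66558386 to 66570613, chromosome 8, 74184176 to 74196081, and chromosome 4, 139148222 to 139158762, were 12.2, 11.9 and 10.5 kb long. In the last of these, 5 of the 8 peaks were close to the weakest that the list holds, with 22 to 24 reads, and 2 adjacent peaks only 5 bp apart held 187 and 150 reads.

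The longest run by far was not among those with the most peaks. Chromosome 11, 3025458 to 3100222, at the low-coordinate end of that chromosome's peaks, spanned 74.8 kb with 7 peaks. The last 4 were ceiling peaks of 18682, 2489, 7346 and 40889 bp, and the 3 before them held 22, 170 and 137 reads. Its widest peaks were far wider than any single peak of the autosomes, no mock value can be set beside this run, and whether repeated sequence or copy number bears on it was not tested. Every other run was shorter than 20 kb. After it came chromosome 3, 95454108 to 95473808, at 19.7 kb, with ceiling peaks in the first and sixth of 7 places. The run at chromosome 11, 120085393 to 120104454, was 19.1 kb long and had 3 ceiling peaks among 7, and 2 further peaks with 236 and 203 reads. Its scores summed to 16397 and those of the 74.8 kb run to 17341, but ceiling scores make up most of both sums, so their order is not read. Chromosome 17, 30731136 to 30750133, at 18.998 kb, ended with a peak of 7226 bp. At chromosome 2, 165698786 to 165716560, a single peak of 9475 bp made up 57.8% of the peak bases. Chromosome 3, 96129336 to 96145443, had 3 ceiling peaks among 6 and no score below 739.7.

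In number, runs fell off steadily with size. There were 7745 runs of 2 peaks and 1731 of 3, just outside the rule, and then 485 of 4, 139 of 5, 37 of 6, 22 of 7 and 13 of 8. Each added peak up to 6 lowered the number by a factor of 3.49 to 6.25. The runs held 4.35% of the autosomal peaks and 5.16% of the autosomal peak bases. Their number depended on the joining distance, with 211 runs at less than 500 bp and 1721 at less than 2 kb. The threshold of 1 kb fell in no trough of the distances, as 858 joined gaps were 900 bp or longer and 760 unjoined gaps were under 1100 bp. The peaks beside these gaps had median scores of 586 and 565.

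The median run was 6426 bp long, with quartiles of 5184 and 8210 bp, and all runs together spanned 5.00 Mb. Runs of 4 peaks had a median length of 5785 bp, runs of 5 of 8055 bp and the 75 runs of 6 or more of 10203 bp. Runs over 10 kb numbered 81, and 146 runs were under 5 kb. The shortest measured 2863 bp. Single peaks rarely spanned as much sequence. Of the 48399 single peaks, 870 were at least as wide as the shortest run, 6 were as wide as the median run, and the widest measured 7414 bp.

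**Figure D2:**
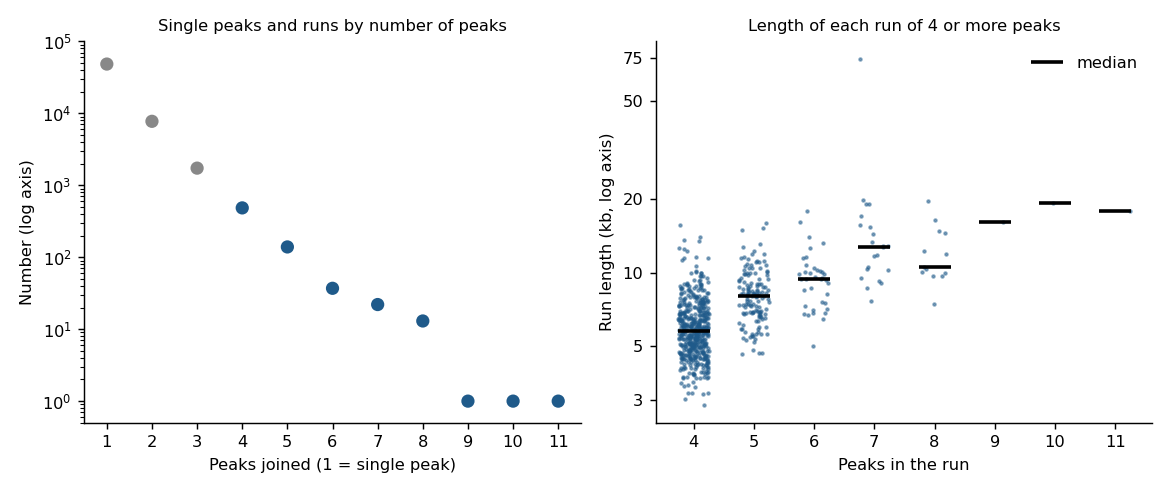
Left: number of single peaks (1 on the horizontal axis) and of runs of 2 to 11 peaks, on a log axis, with grey points for sizes outside the rule and blue for runs of 4 or more. Right: length of each of the 699 runs in kb, on a log axis, by number of peaks, with black bars at the medians; 1 run of 7 peaks at 74.8 kb stands above all others.

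Peaks filled most of a run. The median covered share was 79.9%, with quartiles of 74.2% and 86.0%, and it hardly moved with the number of peaks, at 80.2% for runs of 4, 79.2% for runs of 5 and 79.5% for runs of 6 or more. In 70 runs at least 90% of the sequence lay in peaks. The highest share, 98.5%, was found at chromosome 16, 30062198 to 30071137, where the 3 gaps measured 13, 10 and 109 bp. Close to it were chromosome 15, 99530653 to 99536667, and chromosome 9, 114442789 to 114448795, at 98.4% and 98.1%. Only 12 runs were covered to less than 60%. The lowest share, 49.5%, belonged to chromosome 5, 33010938 to 33015642, whose 4 peaks were 510 to 696 bp wide and held 24, 22, 32 and 25 reads. The next lowest were chromosome 10, 81111324 to 81116395, at 51.0% and chromosome 10, 80855931 to 80861401, at 51.4%.

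Covered share went with the strength of the peaks. The 158 runs with a ceiling peak were covered to a median of 86.8% (quartiles 80.9% and 89.9%), and the 112 runs in which no peak scored 1000 to 71.4% (64.6% and 78.0%). Their median lengths were 9023 and 4473 bp. A ceiling peak was present in 18.4% of runs of 4, 30.9% of runs of 5 and 24.3% of runs of 6. The sets were not compared at like number of peaks, which bears on length and on the longest gap. The longest gap inside a run had similar medians in both sets, 706 and 742 bp, while the score that defines the sets follows peak width. Across the 699 runs Spearman's rho between summed score and covered share was 0.505, where both contain peak width.

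Gaps inside runs had a median of 352 bp (quartiles 146 and 622 bp, 2446 gaps), close to the 345 bp of the gaps inside runs of 2 and 3. Short gaps were the most frequent. Gaps under 100 bp made up 17.6%, and each further class of 100 bp held fewer, down to 5.68% for gaps of 900 bp or longer. A gap under 100 bp was present in 344 runs, and in 161 runs no gap reached 500 bp. When peaks were joined only over gaps of less than 100 bp, there were 5 runs of 4 or more. The midpoints of neighbouring peaks in a run lay a median of 1546 bp apart, with quartiles of 1192 and 1976 bp.

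**Figure D3:**
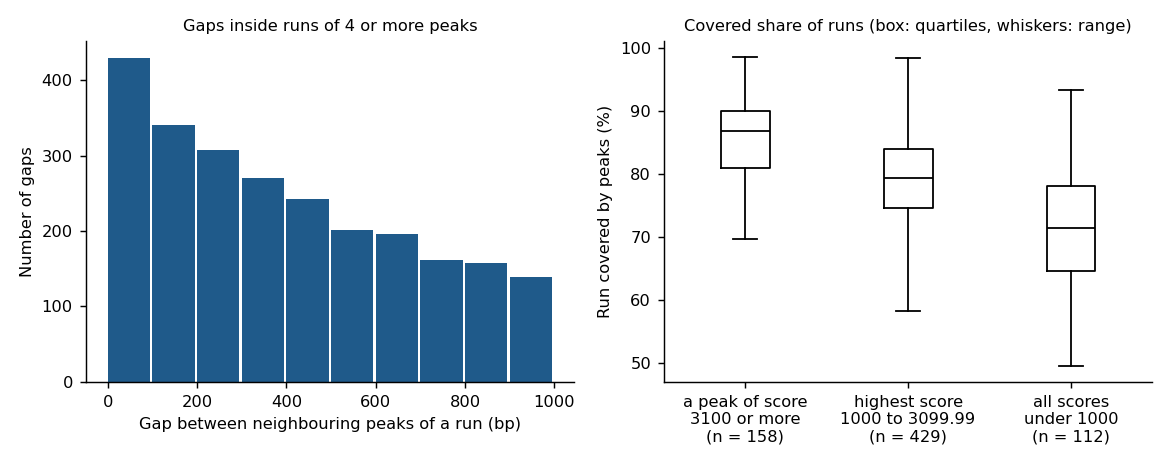
Left: number of gaps between neighbouring peaks of a run, in classes of 100 bp. Right: covered share of runs in percent, split by the highest score of the run, with boxes at the quartiles, the line at the median and whiskers over the range; the medians run from 86.8% with a ceiling peak to 71.4% where all scores were under 1000.

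Peaks in runs were somewhat stronger than single peaks, with wide overlap. Their median score was 683 (quartiles 359 and 1394), and that of single peaks 538 (334 and 1097). Of the peaks in runs, 59.7% scored above the median single peak. Median widths were 954 and 837 bp. The rule takes distances between edges, so wider peaks leave shorter gaps, and score follows width. Higher values of peaks in runs are thus in part built in. Reads were recovered only below the ceiling, for 2961 of the 3145 peaks in runs and 47346 of the 48399 single peaks. Among these, median reads were 49 and 41 and median read densities 51.7 and 49.3 per kb. Median scores were ordered by run size up to 5, with 570 in runs of 2, 612 in runs of 3, 651 in runs of 4 and 740 in runs of 5, while runs of 6 or more had 697. On each of the 19 chromosomes the peaks in runs had the higher median, by a factor between 1.14 and 1.44.

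The upper end of the list was more frequent in runs. A ceiling score was found in 184 of the 3145 peaks or 5.85% (exact 95% binomial interval 5.06% to 6.73%), against 2.70% of all autosomal peaks and 2.16% of single peaks. A score of at least 1000 was present in 1125 peaks of runs or 35.8%, against 28.4% of all autosomal peaks. Widths over 3 kb were found in 148 or 4.71%, against 1.92% of all autosomal peaks. As wider peaks leave shorter gaps between edges, these larger shares are in part built in. These binomial intervals take peaks as independent and are too narrow for peaks of 1 run. The weak end was not missing either. Peaks with at most 25 reads made up 18.7% of the peaks in runs and 22.1% of single peaks, and 417 of the 699 runs held at least 1 of them.

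Many runs held strong and weak peaks side by side. The highest scores of the runs had a median of 1959 and the lowest 304, not far above the 258 at which the list begins. In only 13 runs did no peak score 500, and in 86 runs all peaks did. Among the 158 runs with a ceiling peak, 15 had 2 of them, 4 had 3 and 1 had 4. In the 541 runs for which the reads of every peak could be recovered, the strongest peak held a median of 41.5% of the reads (quartiles 35.2% and 48.2%), and the run as a whole held a median of 269 reads. A highest value picked from several peaks lies above a single one by construction, and a lowest value lies below it. These maxima and minima are therefore not set against single peaks. Whether runs mix strong and weak peaks more than unrelated peaks would was not tested.

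The strongest peak lay at inner places about as often as the number of such places gives. In the 682 runs with 1 highest score it was an inner peak in 364 or 53.4% (exact 95% binomial interval 49.5% to 57.2%), and 54.0% of the places in these runs were inner. Some of these runs, such as chromosome 8, 73010044 to 73020151, held 2 ceiling peaks of unlike score. The higher was taken there, although ceiling scores do not rank peaks. By reads, which leaves out every run with a ceiling peak, the share was 54.6% of 538 runs, with 53.5% of places inner. In runs of 5 or more peaks it was 55.9% (48.8% to 62.8%), where 63.3% of places were inner. In runs of exactly 4 it was 52.3% (47.7% to 56.9%), where 50% of places were inner. These subsets of the same runs thus lay on opposite sides of their share of places, and no preference was tested. The first peak scored higher than the last in 338 runs, lower in 357 and the same in 4. In runs of 4 the median scores at places 1 to 4 were 614, 726, 655 and 613. In runs of 5 they were 564, 744, 744, 779.7 and 756. Pooled over all runs, the peaks in outer places had a median of 639.7 and those in inner places 713. Within single runs the median of the inner peaks was above that of the outer ones in 339 of 699, or 48.5%. The outer median always rests on the first and last peak, while the inner one rests on more peaks in longer runs. Longer runs also give more inner peaks to the pooled median, so neither figure settles whether inner places score higher.

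Scores did not decline with distance from the strongest peak. The direct neighbours of the strongest peak had a median score of 515 (quartiles 324 and 887), peaks at 2 places 517, at 3 places 513, and at 4 or more 528. The strongest peaks themselves had a median of 1928. Gaps beside the strongest peak were slightly shorter, with a median of 326 bp against 371 bp for the other gaps. Across the 2446 neighbouring pairs inside runs Spearman's rho of the scores was 0.0214.

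**Figure D4:**
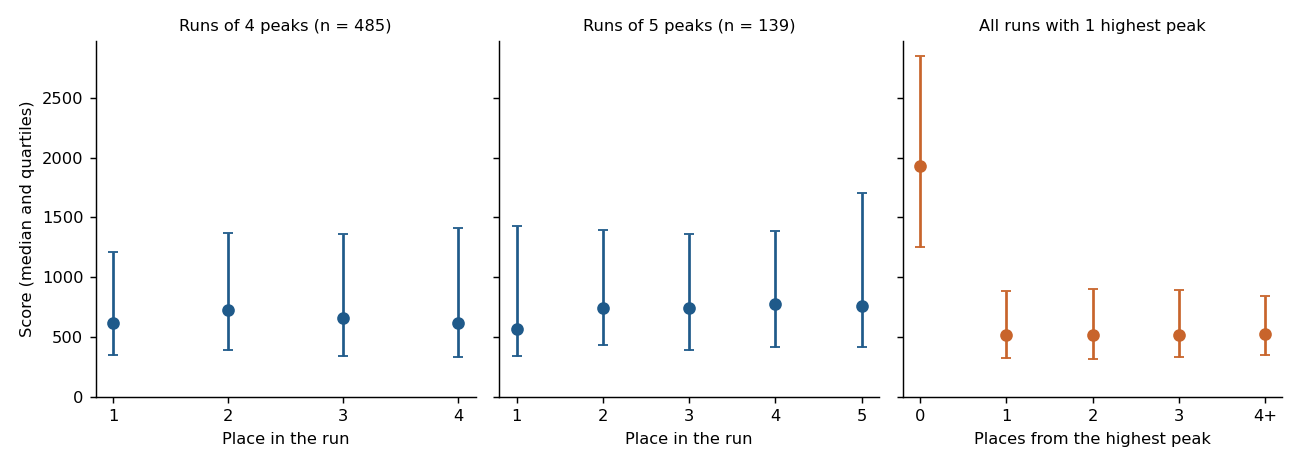
Median score with quartiles by place in runs of 4 and of 5 peaks (blue) and by number of places from the highest peak over the 682 runs with 1 highest peak (orange, last point 4 or more places away). The blue medians lie between 564 and 779.7, and the orange medians away from the highest peak lie between 513 and 528.

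Runs were spread more unevenly over the chromosomes than single peaks. Chromosome 11 had 95 runs, chromosome 4 had 74 and chromosome 2 had 61. These 3 chromosomes held 32.9% of the runs and 23.9% of the single peaks. In the same order, they held 13.6%, 10.6% and 8.73% of the runs, and 9.17%, 7.56% and 8.36% of all autosomal peaks. Per Mb between the first and last peak, chromosome 11 had 0.800 runs (exact 95% Poisson interval 0.647 to 0.978), against 0.290 over all autosomes, and chromosome 13 had 0.0768 (0.0351 to 0.146). The highest and lowest chromosome thus differed 10.4-fold in runs per Mb and 2.50-fold in single peaks per Mb. The 10.4-fold difference rests on only 9 runs on chromosome 13. Chromosome 3, the next lowest, had 0.134 runs per Mb.

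As a share of the peaks of the chromosome, runs held most on chromosomes 11, 4 and 17, with 6.52%, 5.94% and 5.33%. They held least on chromosomes 13, 16 and 14, with 1.54%, 3.10% and 3.13%. Counted as runs per 1000 peaks, chromosomes 11 (14.3, 11.6 to 17.5) and 4 (13.6, 10.6 to 17.0) lay above the autosomal value of 9.68 by more than their intervals, and chromosome 13 (3.47, 1.59 to 6.59) below it. The intervals of the other 16 chromosomes held the autosomal value. These Poisson intervals take runs as independent and are too narrow where runs lie grouped in the same megabase. Relative to all autosomes, the share of peaks in runs on chromosome 11 was 1.497 times as high, and its runs per Mb 2.76 times, since that chromosome also has more peaks for its length. Across the 19 chromosomes Spearman's rho between peaks per Mb and the share of peaks in runs was 0.784. Peaks per Mb enter both quantities in part, as more peaks on the same length leave shorter distances.

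Runs per peak were also set beside the number of peaks in the megabase. More peaks on the same length leave shorter distances, and the peaks of a run count towards its bin, so a higher value in fuller bins is in part built in. In bins of 1 Mb with 1 to 9 peaks there were 1.60 runs per 1000 peaks, and the value rose over bins with 10 to 19, 20 to 39 and 40 to 79 peaks (2.70, 4.66 and 7.58) to 15.8 in bins with 80 to 238. In those fullest bins chromosome 11 had 17.8 runs per 1000 peaks (14.1 to 22.2) and the other autosomes 15.4 (13.9 to 17.1). Chromosome 11 had 66.96% of its peaks in such bins, chromosome 4 had 55.99% and chromosome 13 had 7.14%. When the autosomal rate of each class of bins was applied to the peaks of each chromosome, chromosome 11 had 1.14 times the number of runs so obtained (0.920 to 1.39), chromosome 4 had 1.19 times (0.935 to 1.495) and chromosome 13 had 0.571 times (0.261 to 1.08). The intervals of all 19 ratios held 1. Each chromosome enters the class rates itself, which draws its ratio towards 1. Chromosome 11 alone gave 79 of the 450 runs in the fullest class. The intervals also take the rates as fixed, so whether peak number accounts for the differences between chromosomes was not tested.

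**Figure D5:**
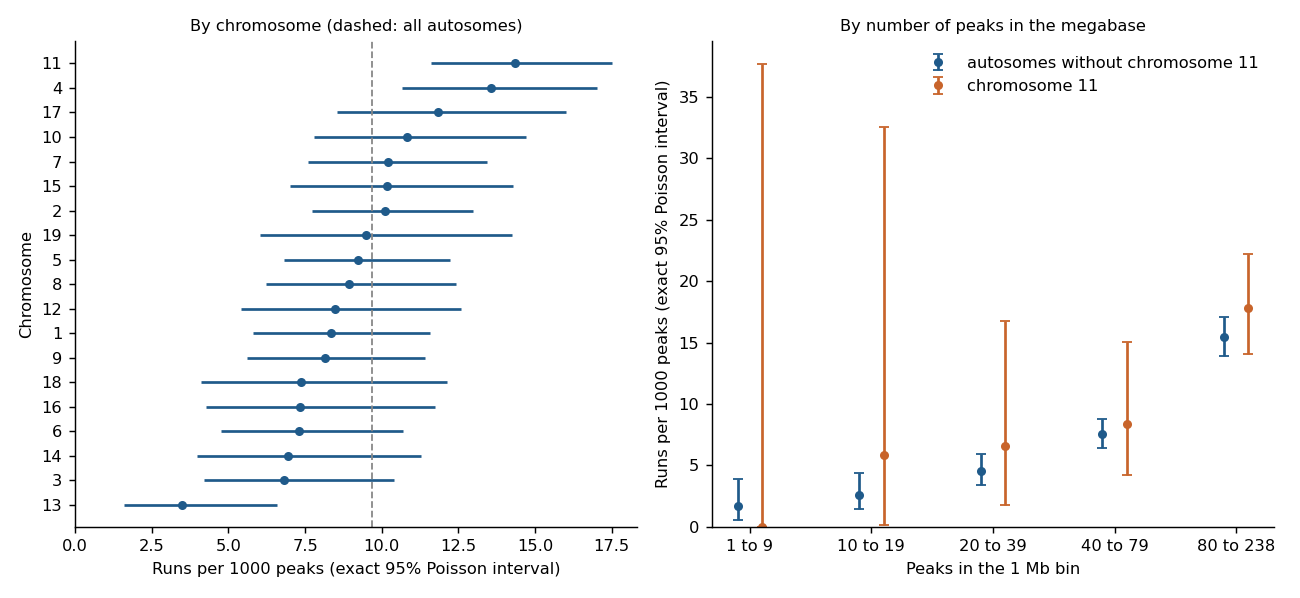
Left: runs per 1000 peaks on each chromosome with exact 95% Poisson intervals, ordered by value, and the autosomal value of 9.68 as a dashed line. Right: the same quantity by number of peaks in the 1 Mb bin, for chromosome 11 (orange) and the other autosomes (blue); both are highest in bins of 80 to 238 peaks, at 17.8 and 15.4.

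The same classes bear on the strength of the peaks. Single peaks had a median score of 485 in bins with 1 to 9 peaks and 583 in bins with 80 or more. Peaks in runs had higher medians than single peaks in each of the 5 classes. The medians were 849 against 485 in the sparsest bins, which held only 5 runs, and 713 against 583 in the fullest. Within a class the joining rule still favours wider peaks, so this difference too is in part built in.

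Many runs shared a megabase with others. Of 2422 autosomal bins, 407 held a run, 252 of them a single one, and 447 of the 699 runs shared their bin with another. The 243 bins with the most peaks, which are 10% of the bins, held 64.1% of the runs (exact 95% binomial interval 60.4% to 67.7%), 38.8% of all peaks and 33.3% of the single peaks. These bins were ranked by counts that include the peaks of the runs, and runs were chosen for close spacing, so the larger share of runs is in part built in. The megabase with the most runs was chromosome 11, 97000001 to 98000000, with 9 runs, in which 52 of its 223 peaks lay. Chromosome 10, 80000001 to 81000000, had 8 runs and the megabase before it 6. Chromosome 12, 88000001 to 89000000, had 7 runs with 31 of its 105 peaks, or 29.5%, the highest share among these megabases. Chromosome 15, 79000001 to 80000000, followed with 5 runs among 174 peaks, a number of runs that 4 other megabases shared. When each chromosome was divided into 3 equal parts from its low-coordinate end, the part farthest from it held 51.4% of the runs. It held 44.3% of all autosomal peaks and 42.8% of the single peaks.

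Most runs had further peaks within 10 kb outside their edges. The nearest peak outside a run lay a median of 2324 bp from its edge (quartiles 1552 and 3972 bp), and the nearest neighbour of a single peak 5317 bp away (2418 and 13668 bp). Within 50 kb outside its edges a run had a median of 15 further peaks, and a single peak had 7. Within 10 kb, 5.87% of the runs and 33.6% of the single peaks had none. These values come from the same positions by which runs and single peaks were chosen. The 10% of bins with the most peaks held 64.1% of the runs and 33.3% of the single peaks. Closer and more numerous peaks around runs are thus in part built in. Runs and single peaks were not compared at like peak number, so whether runs have fuller surroundings beyond this was not tested. Next runs on the same chromosome were a median of 611 kb apart. In 22 of 680 neighbouring pairs of runs the distance was below 5 kb, so that a wider joining distance could unite them.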

How the data were processed

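The members and lists were chosen with earlier results of these data known. Tools in the submitters' processing notes are CASAVA (1.8), Bowtie (0.12.7) and MACS (1.4.1), and the build is mm9. What each tool did, which threshold was set and which control was used is not given in the sources used here. The authors' deposited score was used per peak as it stands. Peaks of chromosomes 1 to 19 were joined where the next start minus the last end was under 1000 bp. Positions are printed counting from 1.

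Below a score of 3100, reads were recovered as the whole number whose Poisson tail probability, over a fitted rate of 1.13 reads per kb times the width, gives the score within 0.01. This held for 71000 of 71009 peaks. The total depth of the library is unknown. On simulated data 100% of 5700 planted runs, and the reads of 100% of 4969 peaks, were recovered. The simulated scores came from the same formula and the planted gaps kept to the joining rule. This recovery therefore checks the code and says nothing about the real list.

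Bins were 1 Mb wide. Named runs are the 10 with the most peaks (ties by length), the 10 longest, the 5 with the highest summed score, and the 3 most and 3 least covered. Named megabases are the 5 with the most runs, and named chromosomes the 3 with the highest and 3 with the lowest share of peaks in runs. Intervals are exact Poisson or Clopper-Pearson at 95%. Alternatives changed the joining distance, the minimum number of peaks, the score threshold, the peak set and the measure. No test between samples was made, as only 1 library was analysed. Python 3.11.15 was used, with numpy 2.4.6 and scipy 1.17.1 for the values, pandas 2.3.3 for tables and matplotlib 3.10.9 for figures.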

Additional observations from a re-analysis of the deposited data

How the results depend on the processing

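The number of runs, the share of peaks in them, their length and their covered share follow the definition of a run. Joining at less than 500 bp gave 211 runs with 1.25% of the peaks, a median length of 5652 bp, a covered share of 88.0% and a ratio of chromosome 11 to all autosomes of 1.82. Joining at less than 2 kb gave 1721 runs with 11.7% of the peaks, 7947 bp and 67.0% covered. A minimum of 3 peaks gave 2430 runs with 11.5% of the peaks, 4480 bp, 80.7% covered, the highest score at an inner peak in 40.7% of runs (39.2% of places inner), 57.0% of peaks above the median single peak, a chromosome 11 ratio of 1.31 and 57.2% of runs in the fullest bins. A minimum of 5 peaks gave 214 runs with 1.67% of the peaks, 8626 bp, 62.8% above the median single peak and 75.2% in the fullest bins. Peaks with a score of at least 500, joined anew, gave 139 runs with 1.56% of those peaks, 8262 bp, 83.2% covered, 49.2% with the highest score inside (53.1% of places), 54.9% above the median single peak, a ratio of 1.66 and 73.4% in the fullest bins. Without the widest 1% of peaks the share was 3.95%, the length 6047 bp and the cover 78.7%. Against single peaks with no neighbour within 5 kb, 61.6% of the peaks in runs lay above the median. Per Mb the chromosome 11 ratio was 2.76. Added after seeing the data were joining at less than 100 bp, with 5 runs, 0.0277% of the peaks, 4451 bp, 94.9% covered, 40% highest inside, 55% above the median single peak, none of the runs on chromosome 11 (ratio 0) and 80% in the fullest bins, and leaving out chromosome 11, with 604 runs and 4.14% of the peaks. Leaving out runs within 1 Mb of a chromosome's first or last peak left 687 runs and moved no result beyond its interval. The share above the median single peak was over 50% in all settings that were run, but the interval of the 5 runs joined at less than 100 bp, 31.5% to 76.9%, includes 50%. No paired analysis was possible because only 1 library has values here. The depth of the library is unknown, and the weakest peak with recovered reads held 21.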

Other observations

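The sex chromosomes lie outside the rule but were joined in the same way. Chromosome X had 3 runs of 4 or more peaks, with 16 of its 715 peaks or 2.24% (exact 95% binomial interval 1.28% to 3.61%). They lay at 7247363 to 7252517, at 7339352 to 7344164 and at 166414624 to 166439474. The first held 5 peaks, none with a score above 571, and the second 4 peaks. The third held 7 peaks, one of them 10032 bp wide, over 24851 bp. Chromosome Y had 2 runs, at 2850850 to 2863500 and 2875810 to 2902463, with 11 of its 27 peaks. Their covered shares were 88.7% and 90.5%, and the second spanned 26654 bp, longer than every autosomal run but the one at the start of chromosome 11. No value of the mock library can be set beside them.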
